A study of Oryctolagus cuniculus with 12 samples.

Results

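Genes of transforming growth factor beta (TGF-beta) and bone morphogenetic protein (BMP) signalling were followed in the basilar artery of the rabbit after experimental subarachnoid hemorrhage (SAH), a bleed into the fluid space around the brain. They were taken by a rule on gene symbols, and the members were chosen with earlier results of these data known. They are ligands, binding proteins, receptors, SMAD proteins and regulators. Their names begin with BMP, TGFB, SMAD, SMURF, INHB, ACVR, LTBP, GDF, FST, CHRD, GREM, TGIF or SKI. The names ID1 to ID4, NOG and ENG also belong to the rule. The rule found 53 genes, measured by 115 of the 43623 non-control probes, among 10221 genes that the array names. Of these, 42 genes and 90 probes were bright enough to be tested, against 7377 tested genes in all. ID1, ID2, ID3, ID4, SMAD6, SMAD7, ENG, ACVRL1, GREM1 and FST were not analysed here. The letters of the rule also took in 5 genes that are not ligands, receptors or signal carriers of the pathway: TGFBI, BMP1, BMP2K, TGFB1I1 and SKIC3.

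Total RNA of the basilar artery was hybridised to 12 single-colour microarrays, 3 in each of 4 groups: arteries labelled control and normal, and arteries labelled SAH at day 3, day 5 and day 7. The labels describe no sham operation and name no strain, sex, age or way of inducing the bleed. They do not say that the replicates of a group came from separate animals, so the p-values measure the spread between these samples, which may in part be technical. In bulk RNA of a vessel, fewer cells of a type and less RNA per cell cannot be told apart.

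TGF-beta and BMP ligands are secreted proteins that assemble pairs of type I and type II receptors, and the receptors phosphorylate SMAD proteins that enter the nucleus with SMAD4. TGF-betas are stored in the matrix in a latent form, held by latent TGF-beta binding proteins, while BMPs are held back by secreted antagonists such as noggin and chordin. In arteries the TGF-beta branch is known for matrix production and the contractile state of smooth muscle, and the BMP branch for endothelial and smooth muscle homeostasis.

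Levels below are log2 signals relative to the 75th percentile of the same array, so 0 is a signal at that percentile, and a level is compared only with levels of the same probe. A gene is given by its tested probe with the highest mean. Changes are differences of these levels, day minus control, with the standard error (SE) of 1 limma fit over all 12 arrays. A gene is called where the Benjamini-Hochberg adjusted p over 26433 tested probes was below 0.05. Each replicate number is 1 slide holding 1 array of every group. The place of an array on its slide cannot be told apart from its group, since each group kept 1 place. The 75th percentile signal lay between 127 and 191 on the 12 arrays. The alternative with normexp background correction added an offset of 50 to each corrected signal. Against such signals, that offset by itself makes the changes of dim probes smaller. The share of spots well above background was 58.2% to 64.0% on 11 of them and 50.1% on control replicate 2, where 169 spots were outliers against 1 to 16 elsewhere. Changes that rest on control replicate 2 are given without it as well. The small number of arrays limits the precision.

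The tissue carried the markers of its label: 7 of 8 contractile smooth muscle markers were tested and all 7 were well above background on all 12 arrays. Their summed linear level, in multiples of the 75th percentile, lay between 349.8 and 422 on day 3, between 337 and 438 on day 5 and between 315 and 418 on day 7, against 471 to 680 in controls. Their median log2 change was -0.58 on day 3, -0.54 on day 5 and -0.69 on day 7, with no gene called on a single day. All 4 tested macrophage markers of 8 (CD14, CD68, MRC1, MSR1) were called higher on every day, and their sum lay between 16.9 and 20.9 on day 3, between 20.5 and 25.0 on day 5 and between 18.1 and 22.5 on day 7, against 4.94 to 7.95 in controls. The sum of fibroblast and leptomeningeal markers, 7 tested of 9, lay between 625 and 726 on day 3, between 932 and 949 on day 5 and between 1038 and 1345 on day 7, against 1022 to 2138 in controls. These markers went both ways: 2 were called higher (COL1A1, LUM) and 3 lower (PTGDS, SLC22A6, SLC22A8) on day 3, 1 higher on day 5 and 2 higher on day 7, and their median log2 change was 0.31, 0.48 and 0.76. The sum of endothelial markers, 5 tested of 8, lay between 71.1 and 80.9 on day 3, between 42.4 and 70.8 on day 5 and between 57.4 and 71.0 on day 7, against 56.5 to 71.1 in controls. Their median log2 change was -0.59, -0.39 and -0.48, and KDR alone was called, at least 2.31-fold lower on day 3 (limma adjusted p 0.0162), where it was well above background on 0 arrays, against 2 control arrays. The sum of cell division genes, 5 tested of 6, lay between 2.52 and 3.90 on day 3, between 1.30 and 2.08 on day 5 and between 1.32 and 1.77 on day 7, against 0.278 to 0.342 in controls. Of these 5 genes, 0 were well above background on all 12 arrays. Their control sum may lie near background, so the size of the rise is uncertain. The part of these shifts in any result below was not tested, except where a value is given.

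Against controls, day 3 had the most calls among the signalling genes: 7 of 42, with TGFBI and TGFBR2 higher and BMP4, BMP6, LTBP4, NOG and TGFB3 lower. The background was 6.87% of all tested genes called, 4.8% higher and 2.07% lower. On day 5 TGFBI and CHRDL1 were called, both higher, and on day 7 TGFBI alone was called, higher, against a background of 2.13% on day 5 (1.91% higher, 0.217% lower) and 2.55% on day 7 (1.97% higher, 0.583% lower). Without day 3 replicate 1, 2 or 3 the day 3 count was 4, 2 and 1, and without control replicate 2 it was 2. The day 5 count was 1 without day 5 replicate 1 or 2, and the day 7 count was 0 without day 7 replicate 1 or 3 or control replicate 2. Without control replicate 3 the day 7 count was 5, with BMP6, BMP7, CHRDL1 and LTBP4 beside TGFBI. The share of all tested genes called in each of these smaller fits is not given. The counts with 1 array left out are therefore not read as results about the signalling genes. The median change of the 42 genes was -0.10 on day 3, 0.05 on day 5 and 0.03 on day 7, and that of all tested genes was -0.01, 0.02 and 0.03 on the same days. The 3 day arrays and the 3 control arrays did not overlap for 16 of the 42 on day 3 (background 25.1%), 13 on day 5 (16.9%) and 14 on day 7 (23.2%). The tested genes had passed a filter on dim probes that a gene could pass through its brighter group alone, so these counts describe only genes that passed. The 3 comparisons share the same control arrays.

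**Figure D1:**
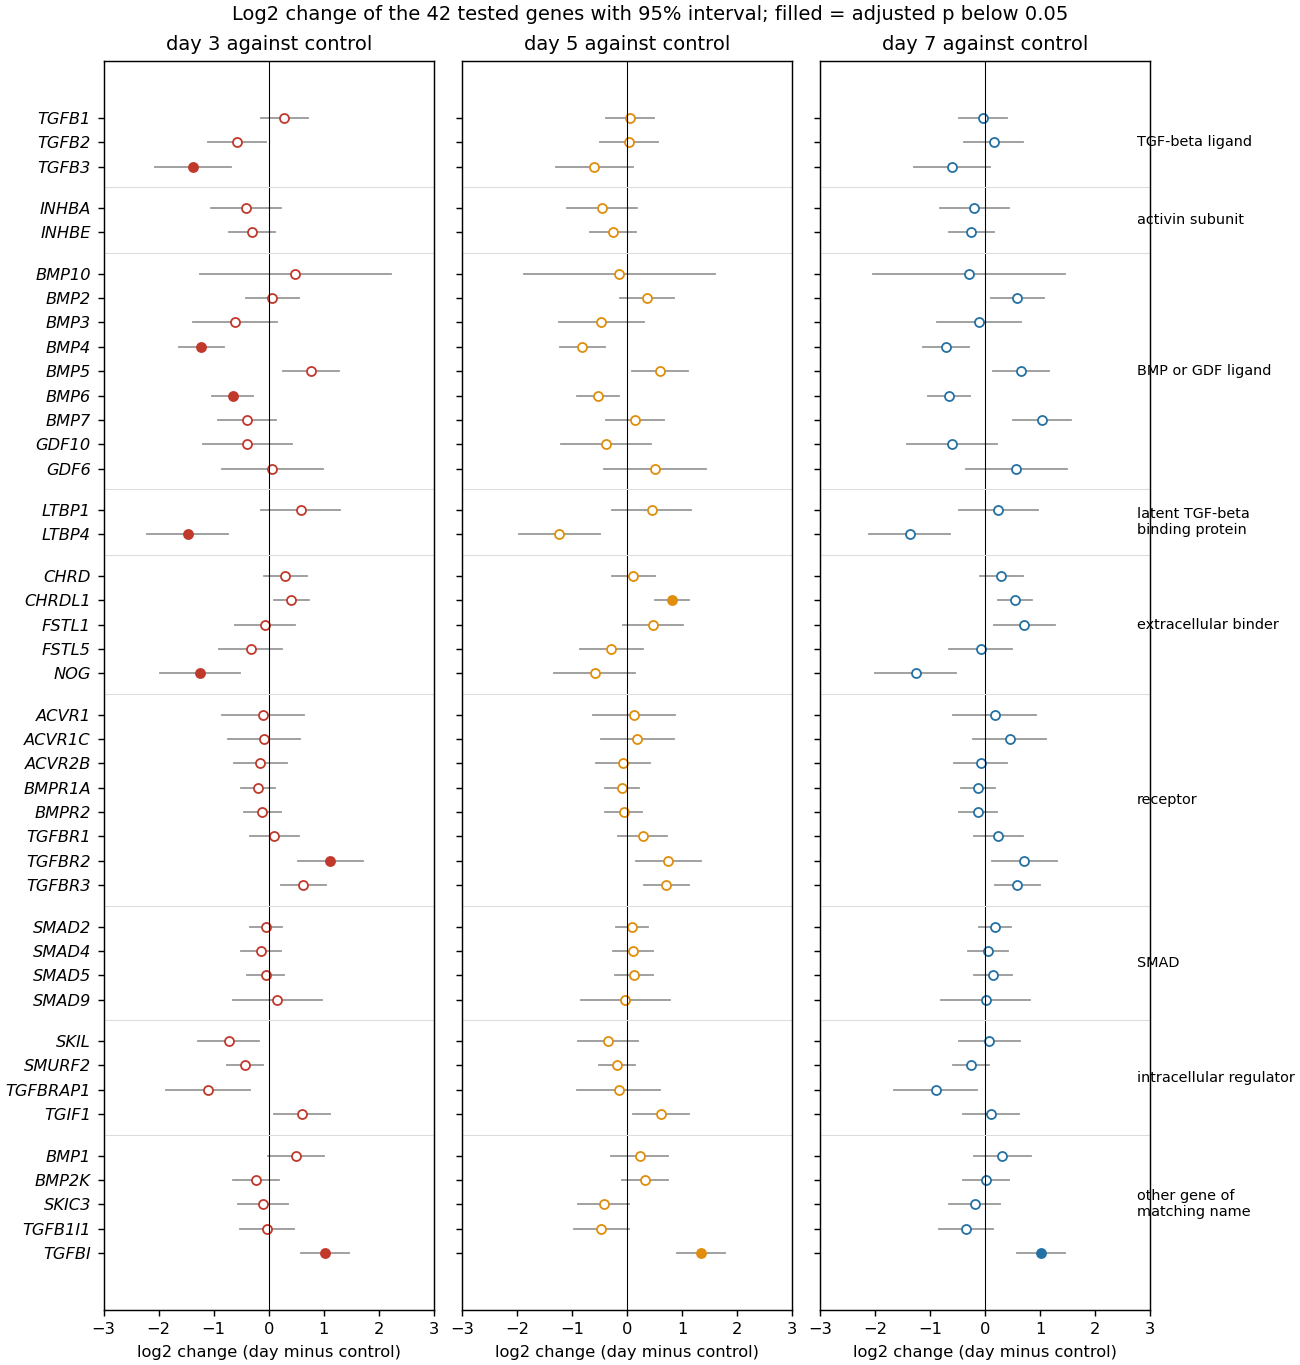
Log2 change, day minus control, of the 42 tested signalling genes with its 95% interval (x axis), by role, on day 3, day 5 and day 7. Filled points are genes called at a limma adjusted p below 0.05: 7 on day 3, of which 5 are lower, 2 on day 5 and 1 on day 7.

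Among the 3 TGF-beta ligands, TGFB3 was lower on day 3 and the other 2 were not called on any day. TGFB3 is the isoform best known from palate and epithelial development. Its probe is printed because the call rests on this 1 probe, which the array's design places at chr20:29200914-29202612 on the plus strand. Its 60 bases cover a span of 1699, so it crosses at least 1 gap in the genome. The array names no genome build for any position given here.
TGFB3: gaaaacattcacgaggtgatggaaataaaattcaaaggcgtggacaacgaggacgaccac
The level of TGFB3 was -3.07, -3.86 and -3.77 on the day 3 arrays, against -2.09, -2.12 and -2.34 on the control arrays. The 3 day 3 arrays lay below the 3 controls, and only day 3 replicate 1 was well above background. The change was -1.38 ± 0.32 (SE, n = 3 each), 2.60-fold lower, with a limma adjusted p of 0.0263 and slide differences of -0.97, -1.74 and -1.43. On day 5 the level was -3.20, -2.53 and -2.60, still below every control, and on day 7 it was -2.96, -2.08 and -3.32, overlapping the controls; neither day was called (changes -0.59 and -0.60, limma adjusted p 0.440 and 0.351). With normexp background correction the day 3 change was -0.46 (limma adjusted p 0.189), and without control replicate 1, control replicate 2, day 3 replicate 2 or day 3 replicate 3 its adjusted p was 0.0675 to 0.103.

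TGFB1, the most widely expressed TGF-beta ligand, was not called on any day. It stood at -0.02, -0.42 and -0.45 on the control arrays, 0.02, -0.16 and 0.11 on day 3, -0.14, -0.29 and -0.29 on day 5 and -0.30, 0.01 and -0.73 on day 7. The groups overlapped on every day, and the 95% interval of the day 3 change ran from -0.15 to 0.72. TGFB2, a ligand that needs the co-receptor betaglycan for strong receptor binding, stood at 0.56, 0.50 and 0.00 on the control arrays, 0.23, -0.24 and -0.64 on day 3, 0.66, 0.34 and 0.17 on day 5 and 0.71, 0.51 and 0.30 on day 7. Day 3 was lower than the control array of the same slide on all 3 slides, but the groups overlapped and the change of -0.57 ± 0.24 was not called (limma adjusted p 0.195). With the slide as a block that change passed, with a limma adjusted p of 0.0350.

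LTBP4, a latent TGF-beta binding protein that ties the latent growth factor to elastic fibres, was lower on day 3. The array describes its probe as a predicted rabbit transcript under a placeholder name, and the symbol comes from the gene identifier in that description. The probe is printed because that identity and the call rest on it alone; the design gives it no place in the genome.
LTBP4: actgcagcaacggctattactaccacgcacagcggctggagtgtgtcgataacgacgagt
The level of LTBP4 was 0.87, 0.36 and -0.0030 on the day 3 arrays, against 2.61, 1.90 and 1.12 on the control arrays. The groups did not overlap, and the control arrays were themselves spread over more than 1 log2 unit. The change was -1.47 ± 0.34 (SE, n = 3 each), 2.77-fold lower, with a limma adjusted p of 0.0256, and the slide differences were -1.74, -1.54 and -1.12. On day 5 it stood at 0.68, 0.38 and 0.90 and on day 7 at 0.38, 0.71 and 0.42. Every one of these 6 arrays lay below the lowest control, yet neither change was called, at -1.23 (limma adjusted p 0.101) and -1.37 (0.0597). Day 5 passed with array weights (-1.67, limma adjusted p 0.0122) and without control replicate 3 (-1.60, 0.0197). Day 7 passed with array weights (-1.71, limma adjusted p 0.0126), without control replicate 3 (-1.75, 0.0111), with the mean of probes (0.0475) and with the slide as a block (0.0474). Without control replicate 1, control replicate 2, day 3 replicate 2 or day 3 replicate 3, the day 3 adjusted p was 0.0628 to 0.107.

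LTBP1, which binds latent TGF-beta to fibronectin and fibrillin in the matrix, was not called. It stood at 2.09, 2.54 and 1.58 on the control arrays, 3.05, 2.61 and 2.29 on day 3, 2.99, 2.71 and 1.86 on day 5 and 2.64, 2.24 and 2.05 on day 7. The groups overlapped on all 3 days, with changes of 0.58, 0.45 and 0.24 and limma adjusted p of 0.342, 0.600 and 0.746.

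The 2 tested activin subunits were not called by limma on any day, and their unadjusted p was above 0.05 each time. INHBA, the subunit of activin A, stood at 4.17, 3.56 and 3.91 on the control arrays, 3.94, 3.12 and 3.34 on day 3, 3.14, 3.34 and 3.81 on day 5 and 3.90, 3.99 and 3.16 on day 7. Its groups overlapped throughout. INHBE, the subunit of activin E, changed by -0.31, -0.25 and -0.25 on days 3, 5 and 7.

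Of 9 tested BMP and growth differentiation factor ligands, BMP4 and BMP6 were lower on day 3 and none was called on day 5 or day 7. BMP4 is a ligand of the BMP type I receptors that is made by endothelial and mesenchymal cells. Its probe is printed with that of its paralog BMP2, the gene of the family whose probes were most like it. The best ungapped alignment between the BMP4 probe and any BMP2 probe matched 39 of 49 bases (79.6%), and the next gene, GDF6, reached 68.3%. Pairs of genes without BMP4 were not compared. Capitals mark bases that the printed pair shares when they are aligned without gaps. The BMP4 probe was placed at chr17:72720966-72721025 and the BMP2 probe at chr4:29449448-29449507, both on the minus strand.
BMP4: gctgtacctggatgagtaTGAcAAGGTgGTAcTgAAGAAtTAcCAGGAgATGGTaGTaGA
BMP2: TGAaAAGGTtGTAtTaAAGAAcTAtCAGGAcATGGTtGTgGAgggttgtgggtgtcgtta
BMP4 stood at 0.57, 0.07 and 0.15 on the day 3 arrays, against 1.36, 1.28 and 1.82 on the control arrays. All 3 day 3 arrays lay below all 3 controls. The change was -1.23 ± 0.19 (SE, n = 3 each), 2.34-fold lower, with a limma adjusted p of 0.00335, and it was negative on each slide (-0.80, -1.21 and -1.67). On day 5 BMP4 stood at 0.66, 0.60 and 0.76 and on day 7 at 0.87, 0.88 and 0.56. These 6 arrays also lay below the lowest control, with changes of -0.81 and -0.72 that were not called (limma adjusted p 0.0534 and 0.0752). The day 5 change passed with 6 of the other ways of processing the arrays, at limma adjusted p of 0.0324 to 0.0469. On day 3 the 5 probes of BMP4 gave changes of -1.23 to -1.14 and all 5 were called, against 1.93% of all tested probes called lower. The 5 probes fall within a window of 64 bases and share 56 of them, so they are not independent measurements. On the same arrays the contractile smooth muscle sum given above was below every control on each day. The fibroblast and leptomeningeal sum was below every control on days 3 and 5, but the median change of these markers was 0.31 and 0.48. The endothelial sum was at or above the highest control on day 3, but the median change of these markers was -0.59. The part of these cell types in the change of BMP4 was not tested. On day 5, 3 of the 5 BMP4 probes were called (background 0.235% lower) and on day 7, 1 of the 5 (0.401%).

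BMP2, the closest relative of BMP4, stood at 2.69, 1.93 and 2.45 on the control arrays, 2.49, 2.70 and 2.09 on day 3, 2.88, 2.82 and 2.47 on day 5 and 3.02, 3.02 and 2.78 on day 7. Its day 3 change was 0.07 ± 0.22. On day 7 all 3 arrays lay above the 3 controls, with a change of 0.58 ± 0.22 that was not called (limma adjusted p 0.204). Its 8 probes gave day 7 changes of 0.49 to 0.92 and none was called. Of their 28 pairs, 10 share a long stretch of bases, and shorter overlaps were not counted.

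BMP6 and BMP7 are paralogs that share receptors, and BMP6 is known as the endothelial signal for hepcidin control in the liver. Their probes are printed because their courses differ. The BMP6 probe was placed at chr12:1645994-1646053 on the plus strand. The design gives no place for the BMP7 probe, which it describes as part of a rabbit BMP7 coding sequence. The identity of the BMP7 probe rests on that description alone and was not checked against a genome or protein.
BMP6: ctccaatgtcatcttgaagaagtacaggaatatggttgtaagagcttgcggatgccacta
BMP7: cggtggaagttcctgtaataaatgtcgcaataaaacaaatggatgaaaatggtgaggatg
BMP6 stood at -1.78, -1.79 and -1.96 on the day 3 arrays, against -0.82, -1.36 and -1.39 on the control arrays. The groups did not overlap, and control replicate 1 was the highest control. The change was -0.66 ± 0.17 (SE, n = 3 each), 1.58-fold lower, with a limma adjusted p of 0.0455 and slide differences of -0.97, -0.43 and -0.57. With the slide as a block the limma adjusted p was 0.0529, and 16 of 21 alternatives ended the call, among them every one that left out an array except control replicate 3. Of its 5 overlapping probes, 4 were called on day 3 (background 1.93% of probes lower), with changes of -0.87 to -0.62. On day 5 BMP6 stood at -1.85, -1.61 and -1.68 and on day 7 at -1.94, -1.91 and -1.70, below every control, without a call (changes -0.52 and -0.66, limma adjusted p 0.170 and 0.0736).

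BMP7 stood at 1.94, 1.70 and 2.62 on the control arrays, 1.65, 1.64 and 1.79 on day 3, 2.06, 2.60 and 2.04 on day 5 and 3.19, 2.86 and 3.30 on day 7. The 3 day 7 arrays lay above all 9 others, while days 3 and 5 overlapped the controls. The day 7 change was 1.03 ± 0.24 (SE, n = 3 each) with a limma adjusted p of 0.0524, just short of the threshold, and slide differences of 1.25, 1.15 and 0.68. Of its 5 overlapping probes, 1 was called on day 7 (background 1.86% of probes higher), with changes of 0.97 to 1.13. Across the 4 groups limma's F test called BMP7 (adjusted p 0.0312). Without control replicate 3, the highest control, the day 7 change was 1.29 and passed (limma adjusted p 0.00991).

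BMP5, another ligand of the BMP7 group, stood at 3.26, 2.47 and 3.04 on the control arrays, 3.86, 3.78 and 3.46 on day 3, 3.58, 3.25 and 3.77 on day 5 and 3.27, 3.71 and 3.71 on day 7. Days 3 and 7 lay above the controls, with changes of 0.77 and 0.64 that were not called (limma adjusted p 0.0728 and 0.182). BMP3, BMP10, GDF6 and GDF10 changed by between -0.61 and 0.56 over the 3 days, with no call. BMP10 and GDF6 were well above background on all 3 arrays of day 5 only.

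**Figure D2:**
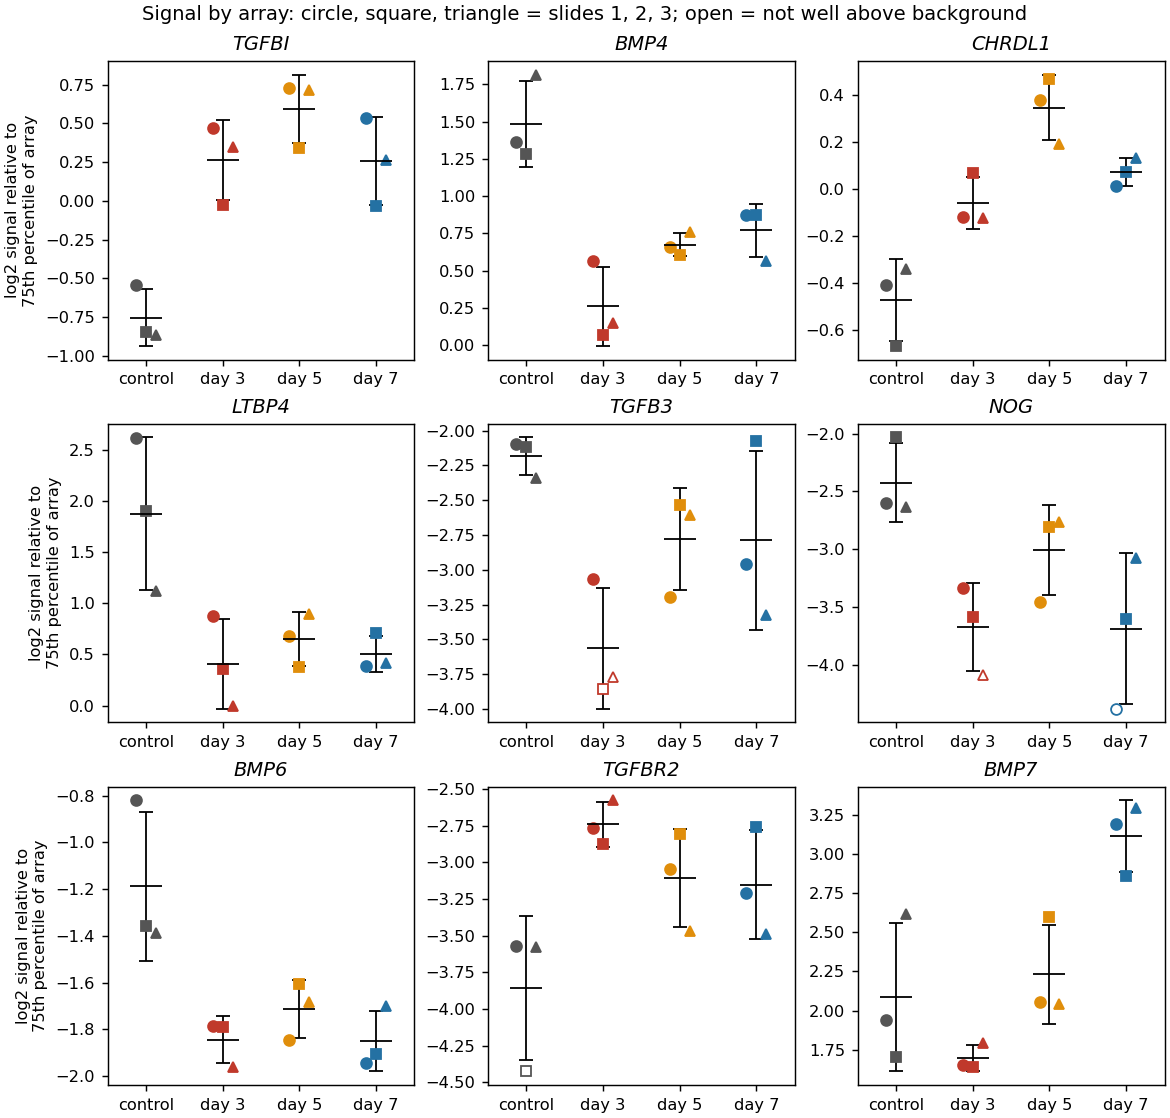
Level on each array (y axis, log2 signal relative to its array's 75th percentile) in controls and on days 3, 5 and 7 for 9 signalling genes; bars are the mean and SD of 3 arrays, and open symbols are not well above background. BMP4, LTBP4, BMP6 and NOG lie below every control on all 9 SAH arrays. TGFBI, CHRDL1 and TGFBR2 lie above every control on all 9, and BMP7 is highest on day 7.

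Among 5 tested secreted binding proteins, noggin (NOG) was lower on day 3 and chordin-like 1 (CHRDL1) was higher on day 5. Both bind BMPs outside the cell and keep them from their receptors. Their probes are printed because these antagonists were called in opposite directions, on different days. The NOG probe was placed at chr19:31415744-31415803 and the CHRDL1 probe at chrX:59098963-59099022, both on the minus strand.
NOG: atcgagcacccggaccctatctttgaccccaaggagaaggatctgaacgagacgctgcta
CHRDL1: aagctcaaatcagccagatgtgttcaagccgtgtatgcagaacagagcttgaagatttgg
NOG stood at -3.34, -3.59 and -4.09 on the day 3 arrays, against -2.60, -2.03 and -2.64 on the control arrays. The groups did not overlap, and day 3 replicate 3 was not well above background. The change was -1.25 ± 0.33 (SE, n = 3 each), 2.37-fold lower, with a limma adjusted p of 0.0482 and slide differences of -0.74, -1.56 and -1.45. The call was lost in 14 of 20 alternatives, with normexp background correction at a change of -0.50 (limma adjusted p 0.147) and without control replicate 2 at a change of -1.05 (limma adjusted p 0.134). On day 5 NOG stood at -3.46, -2.81 and -2.77 and on day 7 at -4.38, -3.60 and -3.08, where replicate 1 was not well above background. All 6 lay below the controls, without a call (limma adjusted p 0.473 and 0.0764).

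CHRDL1 stood at 0.38, 0.46 and 0.19 on the day 5 arrays, against -0.41, -0.67 and -0.34 on the control arrays. The groups were well apart. The change was 0.82 ± 0.14 (SE, n = 3 each), 1.76-fold higher, with a limma adjusted p of 0.0142, and the slide differences were 0.79, 1.13 and 0.53. All 4 of its probes were called on day 5, with changes of 0.74 to 0.91 (background 1.78% of probes higher). Of their 6 pairs, 2 share a long stretch of bases, and shorter overlaps were not counted. On day 3 CHRDL1 stood at -0.12, 0.07 and -0.12 and on day 7 at 0.01, 0.07 and 0.13. These arrays also lay above every control, with changes of 0.41 and 0.54 that were not called (limma adjusted p 0.117 and 0.0768). Without day 5 replicate 1 or day 5 replicate 2 the day 5 limma adjusted p was 0.0601 and 0.0658.

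FSTL1, a secreted follistatin-like glycoprotein that modulates BMP signalling, stood at 1.32, 1.76 and 1.27 on the control arrays, 1.86, 1.37 and 0.90 on day 3, 2.11, 2.02 and 1.62 on day 5 and 2.37, 2.20 and 1.91 on day 7. On day 7 its arrays lay above the controls, with a change of 0.71 ± 0.25 that was not called (limma adjusted p 0.169). Chordin itself (CHRD) changed by 0.30, 0.12 and 0.29 and FSTL5 by -0.33, -0.29 and -0.08 on days 3, 5 and 7.

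Of 8 tested receptors, TGFBR2, the type II receptor that binds TGF-beta and activates the type I receptor, was called higher on day 3. It has 1 probe, printed because its signal was close to background; it was placed at chr14:17706371-17730211 on the plus strand, its 60 bases spread over a span of 23841.
TGFBR2: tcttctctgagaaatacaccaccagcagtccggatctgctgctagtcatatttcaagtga
TGFBR2 stood at -2.77, -2.88 and -2.58 on the day 3 arrays, against -3.57, -4.42 and -3.58 on the control arrays. The groups did not overlap, and control replicate 2 was the lowest and the only array not well above background. The change was 1.12 ± 0.27 (SE, n = 3 each), 2.17-fold higher, with a limma adjusted p of 0.0326 and slide differences of 0.80, 1.55 and 1.003. With normexp background correction, whose offset makes changes of dim probes smaller, the change was 0.15 (limma adjusted p 0.775). Without control replicate 2 it was 0.83 (limma adjusted p 0.0840). Without day 3 replicate 1, 2 or 3 the limma adjusted p was 0.0721, 0.0649 and 0.119. On day 5 TGFBR2 stood at -3.05, -2.81 and -3.47 and on day 7 at -3.21, -2.76 and -3.49, above every control, with changes of 0.75 and 0.71 that were not called.

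TGFBR3, or betaglycan, the co-receptor that presents TGF-beta2, stood at -1.54, -2.24 and -2.001 on the control arrays, -1.12, -1.39 and -1.38 on day 3, -1.09, -1.14 and -1.42 on day 5 and -1.29, -1.40 and -1.35 on day 7. All 9 SAH arrays lay above the highest control. No single day was called, with changes of 0.63, 0.71 and 0.58 and limma adjusted p of 0.0693, 0.0869 and 0.133. With the slide as a block the changes of days 3 and 5 passed (limma adjusted p 0.0375 and 0.0467).

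The remaining receptors were not called on any day. TGFBR1, the type I receptor for TGF-beta, stood at -0.76, -0.61 and -1.01 on the control arrays, -0.46, -0.55 and -1.05 on day 3, -0.40, -0.31 and -0.82 on day 5 and -0.45, -0.73 and -0.50 on day 7. BMPR2, the type II receptor for BMPs whose loss is known from heritable pulmonary hypertension, stood at 5.46, 5.07 and 5.34 on the control arrays, 5.24, 5.20 and 5.09 on day 3, 5.32, 5.22 and 5.15 on day 5 and 5.19, 5.34 and 4.94 on day 7. Its groups overlapped on every day, and the 95% interval of its day 3 change ran from -0.46 to 0.22.

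The BMP type I receptor BMPR1A stood at -0.80, -0.64 and -0.78 on the control arrays, -0.93, -0.88 and -1.01 on day 3, -0.85, -0.68 and -0.98 on day 5 and -0.95, -0.70 and -0.99 on day 7. Its day 3 arrays lay below the controls by a small step of -0.20 ± 0.14 that was not called. ACVR1, a type I receptor for BMPs and activins, stood at 1.59, 1.57 and 1.13 on the control arrays, 1.54, 1.62 and 0.82 on day 3, 2.08, 1.90 and 0.68 on day 5 and 1.85, 1.42 and 1.52 on day 7. The groups of ACVR1 overlapped on every day. ACVR1C and ACVR2B, receptors for activin and related ligands, changed by between -0.15 and 0.44 with no call.

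None of the 4 tested SMAD genes was called on any day. Their changes lay between -0.14 and 0.16 on day 3, between -0.04 and 0.13 on day 5 and between 0.01 and 0.18 on day 7, and their unadjusted p was above 0.05 each time. SMAD2, which carries the TGF-beta signal, stood at 0.35, 0.25 and 0.14 on the control arrays, 0.29, 0.19 and 0.15 on day 3, 0.36, 0.34 and 0.33 on day 5 and 0.26, 0.57 and 0.46 on day 7. SMAD5, which carries the BMP signal, stood at 1.06, 0.99 and 1.17 on the control arrays, 1.17, 1.04 and 0.83 on day 3, 1.25, 1.40 and 0.94 on day 5 and 1.24, 1.24 and 1.16 on day 7. SMAD4, the partner of both, stood at 0.74, 0.61 and 0.81 on the control arrays, 0.75, 0.70 and 0.28 on day 3, 0.99, 0.85 and 0.64 on day 5 and 0.89, 0.69 and 0.72 on day 7. The groups of these genes overlapped on every day, and their RNA level says nothing about phosphorylation. SMAD1 was well above background on no array and SMAD3 on 6 of 12, and neither was tested.

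Among 4 tested intracellular regulators no gene was called on any day without a block or array weights. TGFBRAP1, a protein that binds TGF-beta receptors, stood at -3.39, -3.21 and -3.87 on the day 3 arrays, against -2.41, -1.95 and -2.80 on the control arrays. The groups did not overlap, and day 3 replicate 3 was not well above background. The change of -1.11 ± 0.35 had a limma adjusted p of 0.0856, and of 0.00508 with the slide as a block. On day 7 TGFBRAP1 stood at -2.86, -2.99 and -3.9997, with a change of -0.90 and a limma adjusted p of 0.207, or 0.0223 with the block. SKIL, a repressor of SMAD transcription, changed by -0.73 on day 3, SMURF2, a ubiquitin ligase for SMADs and receptors, by -0.43, and TGIF1, a SMAD corepressor, by 0.61, with limma adjusted p of 0.116, 0.117 and 0.152. With array weights the day 3 change of SMURF2 was -0.48 and passed (limma adjusted p 0.0451).

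TGFBI was the only gene of the rule that was called higher on all 3 days. It encodes a secreted matrix protein, named for its induction by TGF-beta, that binds collagens and integrins. Its 1 probe is printed because all 3 calls rest on it; it was placed at chr3:18548646-18550655 on the plus strand, over a span of 2010.
TGFBI: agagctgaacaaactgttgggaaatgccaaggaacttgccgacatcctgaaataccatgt
TGFBI stood at 0.47, -0.03 and 0.35 on day 3, 0.73, 0.34 and 0.71 on day 5 and 0.54, -0.03 and 0.26 on day 7, against -0.54, -0.85 and -0.87 on the control arrays. Every SAH array lay above every control. The change was 1.02 ± 0.20 on day 3 (2.02-fold, limma adjusted p 0.0129), 1.35 ± 0.20 on day 5 (2.55-fold, 0.00538) and 1.01 ± 0.20 on day 7 (2.01-fold, 0.0259), each SE over n = 3 arrays a group. The slide differences were 1.01, 0.82 and 1.21 on day 3, 1.27, 1.19 and 1.58 on day 5 and 1.08, 0.82 and 1.13 on day 7. On the same arrays the macrophage marker sum given above was higher than in every control on each day, and its part in the change of TGFBI was not tested. The day 3 call was lost without day 3 replicate 3 (limma adjusted p 0.0529), and the day 7 call without day 7 replicate 1, day 7 replicate 3 or control replicate 2 (0.0812 to 0.113) and with normexp background correction (0.0653).

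The other 4 genes taken in by their letters were not called. BMP1, a metalloproteinase that trims procollagen and cleaves chordin, changed by 0.50, 0.23 and 0.31 on days 3, 5 and 7. Its 3 day 3 arrays lay above the controls (limma adjusted p 0.244). TGFB1I1, a focal adhesion protein also known as Hic-5, changed by -0.03, -0.46 and -0.35, BMP2K, a kinase, by -0.23, 0.33 and 0.01, and SKIC3, a helper of the RNA exosome, by -0.10, -0.43 and -0.19.

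**Figure D3:**
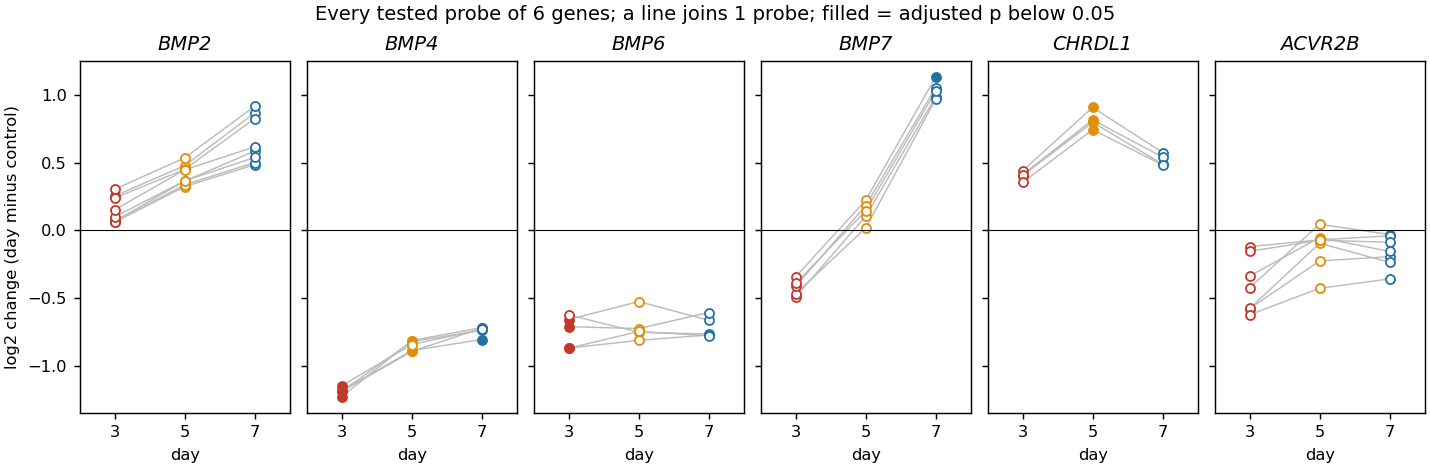
Log2 change, day minus control (y axis), of every tested probe of 6 genes with several tested probes on days 3, 5 and 7 (x axis); a line joins the values of 1 probe, and filled points are called at a limma adjusted p below 0.05. The 5 BMP4 probes are called lower on day 3 and the 4 CHRDL1 probes higher on day 5, and the BMP7 probes lie between -0.49 and -0.34 on day 3 and between 0.97 and 1.13 on day 7.

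Taking the mean of days 3, 5 and 7 against the controls, 8 of 42 genes were called, 4 higher and 4 lower, against 7.54% of all tested genes (5.25% higher, 2.29% lower). TGFBI changed by 1.12 ± 0.16 (limma adjusted p 0.0023), TGFBR2 by 0.86 ± 0.22 (0.0396), TGFBR3 by 0.64 ± 0.15 (0.0286) and CHRDL1 by 0.59 ± 0.12 (0.0133). LTBP4 changed by -1.36 ± 0.27 (limma adjusted p 0.0144), NOG by -1.03 ± 0.27 (0.0445), BMP4 by -0.92 ± 0.15 (0.00555) and BMP6 by -0.61 ± 0.14 (0.0253). The count was 4 without control replicate 1, 3 without control replicate 2 and 5 without day 5 replicate 1. Without control replicate 2 the limma call was lost for TGFBR2 (0.58, adjusted p 0.169), TGFBR3 (0.48, 0.132), CHRDL1 (0.49, 0.0668), LTBP4 (-1.35, 0.0553) and NOG (-0.84, 0.179). Over all alternatives the call was lost in 13 of 20 for TGFBR2, 13 of 20 for NOG and 8 of 21 for TGFBR3, and with normexp background correction the changes of these genes were 0.27, -0.24 and 0.34. The F test of any day against the controls called BMP4, BMP7, CHRDL1 and TGFBI, 4 of 42, against 3.29% of all tested genes. That count was 1 or 2 without each of 8 arrays: the 3 of day 3, the 3 of day 7, and control replicates 1 and 2. For the counts with 1 array left out, the share over all tested genes is not given. They are not read as results about the signalling genes.

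Between the days, none of the 42 genes was called by limma in day 5 against day 3, day 7 against day 3 or day 7 against day 5, where 0%, 0.108% and 0% of all tested genes were called. At an unadjusted limma p below 0.05 there were 7, 7 and 2 of the 42, or 16.7%, 16.7% and 4.76%. Over all tested genes the shares at that threshold were 7.54%, 11.8% and 1.72%. The smallest p was that of BMP7 in day 7 against day 3, where the change was 1.42 ± 0.24, 2.67-fold higher, with a limma adjusted p of 0.0524 and slide differences of 1.54, 1.21 and 1.502. Without control replicate 2 or 3, its limma adjusted p was 0.0400 and 0.0351, and leaving out any other array did not make it pass. The change itself holds no control array and stayed at 1.42. Those arrays enter only the shared estimate of the spread and the adjustment of p. BMP4 was 0.51 ± 0.19 higher on day 7 than on day 3, with a limma adjusted p of 0.364, so its smaller change at the later days is not shown to differ from that of day 3.

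**Figure D4:**
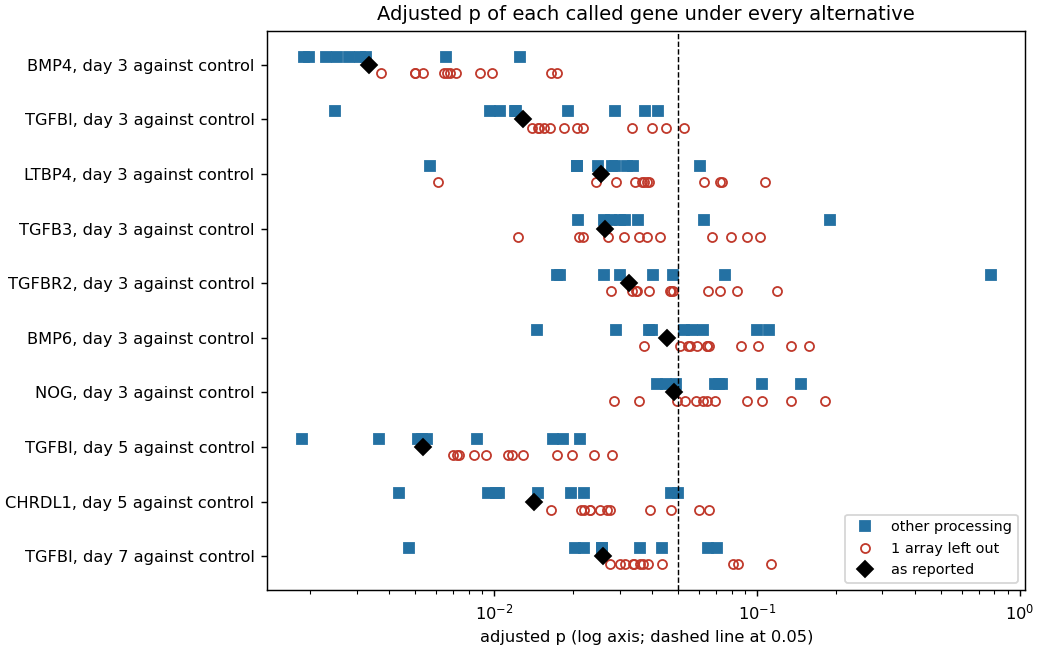
Limma adjusted p (x axis, log scale; dashed line at 0.05) of each gene called on a day against the controls, as reported and under every alternative. BMP4 on day 3 and TGFBI on day 5 stay below 0.05 in all 21 alternatives, while BMP6 and NOG on day 3 lie above it in 16 of 21 and 14 of 20.

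Genes that act with the signalling genes were described from lists of known partners and targets. The list of TGF-beta target and matrix genes held 24 symbols, with CCN2 also under its older name CTGF. Of these, 13 were tested, with 3 higher and 1 lower on day 3, 1 higher on day 5 and 2 higher on day 7. Over all tested genes 4.8% were called higher and 2.07% lower on day 3, 1.91% higher on day 5 and 1.97% higher on day 7. The median change of the 13 was 0.28, 0.28 and 0.20. COL1A1, a chain of collagen I, was higher on days 3, 5 and 7 by 1.56, 1.62 and 1.57 (limma adjusted p 0.00254, 0.00453 and 0.00578). COL3A1, the chain of collagen III, was higher by 0.93 on day 3 (0.0329) and 1.04 on day 7 (0.0375). On day 3 CDKN1A, a cell cycle inhibitor, was higher by 1.68 (0.0121) and CCN2, a matrix-associated growth regulator, lower with a change of -1.38 (0.0299). COL1A1 is also 1 of the fibroblast markers. ACTA2, TAGLN and CNN1 of this list are also contractile smooth muscle markers, and of these ACTA2 and TAGLN were tested.

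Of 16 BMP target genes, 9 were tested; 1 was called, lower on day 3 (2.07% of all tested genes were), and none on day 5 or 7. The median change was -0.55, -0.22 and -0.45, against -0.01, 0.02 and 0.03 over all tested genes. The called gene was MSX2, a homeobox transcription factor, with a change of -0.67 (limma adjusted p 0.0319). The changes of the 9 on day 3 ran from -1.14 to 1.01.

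Of 24 genes of latent TGF-beta storage and activation, 13 were tested, with 3 higher and 3 lower on day 3, and 1 higher and 1 lower on each of days 5 and 7, against 6.87%, 2.13% and 2.55% of all tested genes called in either direction. PLAU, the urokinase that makes plasmin, was higher by 1.51 on day 3 (limma adjusted p 0.00163) and 1.04 on day 5 (0.0285). PCSK6, a proprotein convertase, was well above background on no control array and was at least 1.27-fold higher on day 3 (limma adjusted p 0.00457). It could therefore pass the filter on dim probes only through SAH arrays, which limits its call among the 3 higher on day 3. Its p rests on control signals not clear of background and does not test the bound. ITGB8, the integrin chain that helps release TGF-beta, was lower on day 3 with a change of -1.09 (0.0114). MMP9, a gelatinase, was lower on day 5 with a change of -1.71 (0.0249) and on day 7 with -2.41 (0.00441). Chosen after their values were seen, the remaining day 3 calls were the microfibril gene FBN1 (1.15, limma adjusted p 0.0458), FBN2 (-1.24, 0.0246) and the elastic fibre gene FBLN5 (-0.95, 0.0441). Of 28 symbols of other extracellular modulators, with HJV also under its older name HFE2, 5 were tested. HJV, a BMP co-receptor, was called, with a change of 0.72 on day 3 (limma adjusted p 0.0467). Of 31 intracellular partners, 23 were tested and RHOA, a small GTPase, was called, with a change of 0.53 on day 3 (0.0423); neither list had a call on day 5 or 7.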

How the data were processed

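Total RNA was labelled with Cy3 and hybridised to 12 single-colour Agilent arrays, per the labels' protocols. The authors deposited the scanner output of Agilent Feature Extraction 9.5.1.1, in which the processed signal is a background-subtracted, detrended intensity without scaling between arrays, per the file headers; mean and local background signals are raw intensity values. The scanner's flags (signal clear of background, outlier, saturation) are of the unit other, being 0 or 1, per the file headers. A deposited value table holds intensity on a linear scale with the median 27.0 in all 12 columns; against the scanner signals its log2 columns had r of 0.994 or more. It served as an alternative, and no statement of its normalization was used.

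Outlier spots were set to missing (0 tested members lacked a spot), log2 processed signals were taken relative to the 75th percentile of non-control spots, and replicate spots were averaged by probe. A probe entered the tests when some group had it well above background on each of its 3 arrays, which held for 26433 of 43623. Names came from the array's accessions, identifiers and descriptions through RefSeq symbols (assembly mOryCun1.1, used for names): 23158 probes matched 1 gene, 138 matched several and 20327 matched none. TGFB1, ACVR2B and CHRD were named from older names in the descriptions. Probe sequences and positions are the array design's. All comparisons came from 1 two-sided fit by limma 3.58.1 under R 4.3.3, without a block, tested on simulated data; files were read with data.table (version 1.17.8). Where a group had no array above background, the fold is a lower bound: in the dim group each array counts at its lowest signal above background, or at the probe's own signal where that is higher. A limma p beside such a fold comes from the fit of the signals as measured, and does not test the bound. Alternatives changed the background correction, scaling, filter, slide block, array weights and probe summary, used the authors' table, or left out each array. Every gene of the rule was counted; those called, and a fixed core of ligands, receptors and SMADs, are given array by array, and up to 4 called genes with the smallest p are named per further list. The members and lists were chosen with earlier results of these data known.

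Same-numbered arrays share a slide, per the file headers. The deviations of same-numbered arrays from their group means correlated at -0.153 to 0.387 (median 0.108, 18 pairs), and those of different numbers at -0.396 to 0.260 (median -0.041, 36 pairs).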

Additional observations from a re-analysis of the deposited data

Results flagged for a closer look

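BMP7, whose probe identity was not checked, was below the control of the same slide on day 3 and above it on day 7, on all 3 slides. Its slide differences from control were -0.29, -0.06 and -0.82 on day 3 and 1.25, 1.15 and 0.68 on day 7. Neither the day 3 change of -0.39 nor the day 7 change of 1.03 was called (limma adjusted p 0.389 and 0.0524), and the day 3 arrays overlapped the controls. The difference between these effects, which is the change of day 7 against day 3, was 1.42 on the log2 scale and did not pass the threshold (limma adjusted p 0.0524). BMP7 and TGFB2 were picked by this rule of signs among the 42 tested genes. The share of all tested genes that meet the rule is not given.

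TGFB2 was also below the control of the same slide on all 3 slides on day 3, by -0.33, -0.74 and -0.64, and above it on day 7, by 0.15, 0.01 and 0.29. Neither day was called. The difference between the effects of day 7 and day 3 was 0.72 on the log2 scale, with a limma adjusted p of 0.318. The controls enter both effects.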

How the results depend on the processing

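No call against the controls changed direction in any alternative. With normexp background correction the counts of called genes were 4 on day 3 (7 as reported), 0 on day 7 (1) and 4 for the mean of days (8); all-probe medians then shifted by 0.108 on day 5 against control and 0.114 on day 5 against day 3. Without a filter on dim probes they were 2 on day 3, 0 on day 7, 4 for the mean of days and 1 for the F test (4). With probes well above background on all arrays they were 4 on day 3, 2 on day 7 and 1 for day 7 against day 3 (0). Day 7 had 2 with quantile normalization, 2 with the percentile over probes detected on all arrays, 3 with the mean of a gene's probes and 6 with array weights, which gave 5 on day 5 (2). The added call in day 7 against day 3, 1 gene under the percentile over detected probes, array weights and the mean of probes, was BMP7. With the slide as a replicate block, which pairs arrays by number, day 3 had 9 calls, day 5 had 3, day 7 had 3 and the mean of days 8. Leaving out 1 array gave 1 to 6 calls on day 3, 1 to 3 on day 5, 0 to 5 on day 7, 3 to 8 for the mean of days, 1 to 5 for the F test, 0 to 1 for day 7 against day 3 and 0 to 0 for both comparisons with day 5. The share of all tested genes called under each alternative is not given beside these counts, here or above. They are therefore not read as results about the signalling genes, and the cause of the shifts was not tested. TGFB3, NOG and TGFBR2 lie near the background, which limits their changes. The offset of the normexp correction makes changes at such levels smaller by itself.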
